A study of Mus musculus with 8 samples.

Results

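The 9 genes described here encode the protein kinase inhibitors *Pkia*, *Pkib* and *Pkig*, the catalytic subunits *Prkaca* and *Prkacb*, and the regulatory subunits *Prkar1a*, *Prkar1b*, *Prkar2a* and *Prkar2b* of protein kinase A (PKA). They were chosen by gene symbol, and are 9 of the 48709 genes in the count table. The choice followed from the low *Pkia* level of *Setd2*-targeted tumors in these same data, so the *Pkia* genotype difference is given as a description with no test. The other 8 genes entered by family name, and their differences were tested.

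PKA is the main receptor of the second messenger cAMP. In the resting holoenzyme a dimer of regulatory subunits holds catalytic subunits silent, and binding of cAMP frees them to phosphorylate cytosolic and nuclear proteins. The small PKI proteins bind free catalytic subunits, block the substrate cleft and carry the subunit out of the nucleus, while A-kinase anchoring proteins hold the holoenzyme at membranes and organelles through its regulatory dimer. In the lung, cAMP signaling is known for its part in surfactant secretion, endothelial barrier function and the damping of macrophage activation.

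RNA sequencing was performed on 4 *K-Ctrl* and 4 *K-Setd2KO* mouse lung tumors. All came from mice on a mixed B6J/129S4vJae background, and all were started by endotracheal delivery of LentiCRISPRv2Cre, a lentivirus that expresses Cre, Cas9 and 1 guide RNA. The guide was directed against *GFP*, which mouse genes do not encode, in *K-Ctrl*, and against *Setd2*, which methylates lysine 36 of histone H3, in *K-Setd2KO*. Ages and times after infection were not given in the labels, the *K-Setd2KO* tumors were low grade adenomas matched for stage with their controls, and no restriction of the vector to a cell type is stated. The design text speaks of frozen tumors and the extraction text of cell lines, which was not resolved. Nothing in the labels says that the tumors of a group came from separate mice, so p-values measure the spread between these tumors.

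Total counts ranged from 5806599 to 21290402, a 3.67-fold range, and 3 counts corresponded to 0.139 to 0.513 CPM, the read count scaled to a library size shared by all tumors. Each of the 9 genes had at least 26 counts in every tumor and at most 10481, and all passed the filter on low counts. *Setd2* mRNA did not separate the genotypes (log2 fold change −0.05, SE 0.115, edgeR adjusted p = 0.824), so it does not check the labels, since a guide can disrupt a gene without lowering its mRNA. By sex-specific transcripts, 1 *K-Ctrl* and 3 *K-Setd2KO* tumors were female. Summed alveolar type 2 markers were high in all tumors (55950 to 90770 CPM), as the lung label implies. Summed pan-leukocyte markers were 1134 to 2010 CPM in *K-Ctrl*, against 624.3 to 819.0 CPM in *K-Setd2KO*, without overlap, and 8 of these 10 markers were called lower. In bulk tumors fewer cells of a type and less RNA per cell cannot be told apart.

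The members share a stretch of sequence that the choice did not use. Inhibitors and regulatory subunits occupy the same cleft of the catalytic subunit through a short site in which a pair of arginines is followed by any residue and then by alanine, glycine or serine, where alanine or glycine cannot be phosphorylated. The coding sequence around this site is shown for 7 members, because it is the stretch through which both classes meet the catalytic subunit and because the residue after the variable one differs between the type II subunits and the rest. Each line gives 54 bases, 5′ to 3′ on the coding strand, from GENCODE M21 transcripts on GRCm38, with the 15 bases of the 5 codons of the site in capitals; coordinates marked spliced span an intron.
Pkia, alanine, chr3:7437395-7437448, plus strand: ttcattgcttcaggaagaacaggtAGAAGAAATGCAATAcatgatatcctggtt
Pkib, alanine, chr10:57728149-57728202, plus strand: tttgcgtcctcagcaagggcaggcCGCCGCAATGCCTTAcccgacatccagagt
Pkig, alanine, chr2:163721181-163721234, plus strand: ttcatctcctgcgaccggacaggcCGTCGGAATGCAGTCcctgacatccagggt
Prkar1a, alanine, chr11:109660083-109660136, plus strand: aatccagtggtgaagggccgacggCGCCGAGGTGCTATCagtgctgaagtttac
Prkar1b, glycine, chr5:139108517-139108570, minus strand: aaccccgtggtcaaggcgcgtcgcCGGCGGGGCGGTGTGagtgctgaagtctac
Prkar2a, serine, chr9:108692712-108716879, plus strand, spliced: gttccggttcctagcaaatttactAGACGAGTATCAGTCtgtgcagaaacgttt
Prkar2b, serine, chr12:31993767-32060782, minus strand, spliced: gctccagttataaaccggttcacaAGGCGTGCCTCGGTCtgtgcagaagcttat
The type II subunits carry serine as the fourth residue and the other 5 genes alanine or glycine. Of the 54 bases, *Pkib* shared 32 with *Pkia* and *Pkig* shared 34, and *Prkar2a* shared 35 with *Prkar2b*. The whole coding sequences run to 76 codons in *Pkia*, 78 in *Pkib* and 76 in *Pkig*, and to 381, 381, 402 and 416 codons in *Prkar1a*, *Prkar1b*, *Prkar2a* and *Prkar2b*.

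To determine whether the fall of *Pkia* was matched by other inhibitors, all 3 *Pki* genes were compared between the genotypes. *Pkia* was 4.43-fold lower in *K-Setd2KO*, while *Pkib* and *Pkig* overlapped widely between the groups and did not pass the test.

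*Pkia* (ENSMUSG00000027499.12, chromosome 3, 7366669 to 7445366, plus strand, protein-coding) encodes PKI-alpha, the classical inhibitor of brain, heart and muscle. It was at 18.8, 18.1, 17.6 and 15.8 CPM in *K-Ctrl* replicates 1 to 4 and at 4.37, 3.90, 3.14 and 4.45 CPM in *K-Setd2KO* replicates 1 to 4. The values lay close together within each genotype and far apart between them. The group means were 17.6 ± 1.27 and 3.96 ± 0.601 CPM (SD, n = 4 each), with a log2 fold change of −2.15 (SE 0.187). A log2 fold change of −2 or lower was found for 3.82% of the 14929 genes tested. Across 16 alternative fits of the same counts the *Pkia* difference stayed between −2.27 and −2.05, which is no independent support.

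*Pkib* (ENSMUSG00000019876.15, chromosome 10, 57631981 to 57741112, plus strand) encodes the beta inhibitor, first known from testis. It was at 24.8, 53.9, 30.8 and 61.9 CPM in *K-Ctrl*, against 26.2, 73.4, 32.1 and 32.4 CPM in *K-Setd2KO*. The single highest tumor was *K-Setd2KO* replicate 2, and within both genotypes the values differed more than the means of 42.8 ± 17.8 and 41.0 ± 21.8 CPM did. The log2 fold change was −0.06 (SE 0.392, 95% interval −0.94 to 0.83, edgeR adjusted p = 0.938).

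*Pkig* (ENSMUSG00000035268.14, chromosome 2, 163658386 to 163726158, plus strand) encodes the broadly expressed gamma inhibitor. Its *K-Ctrl* values were 23.4, 17.6, 16.9 and 16.9 CPM and its *K-Setd2KO* values 19.8, 31.6, 15.97 and 10.4 CPM, so the controls fell inside the range of the targeted tumors. The log2 fold change was 0.07 (SE 0.303, 95% interval −0.62 to 0.75, edgeR adjusted p = 0.908). Neither interval leaves out a change in either direction.

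**Figure D1:**
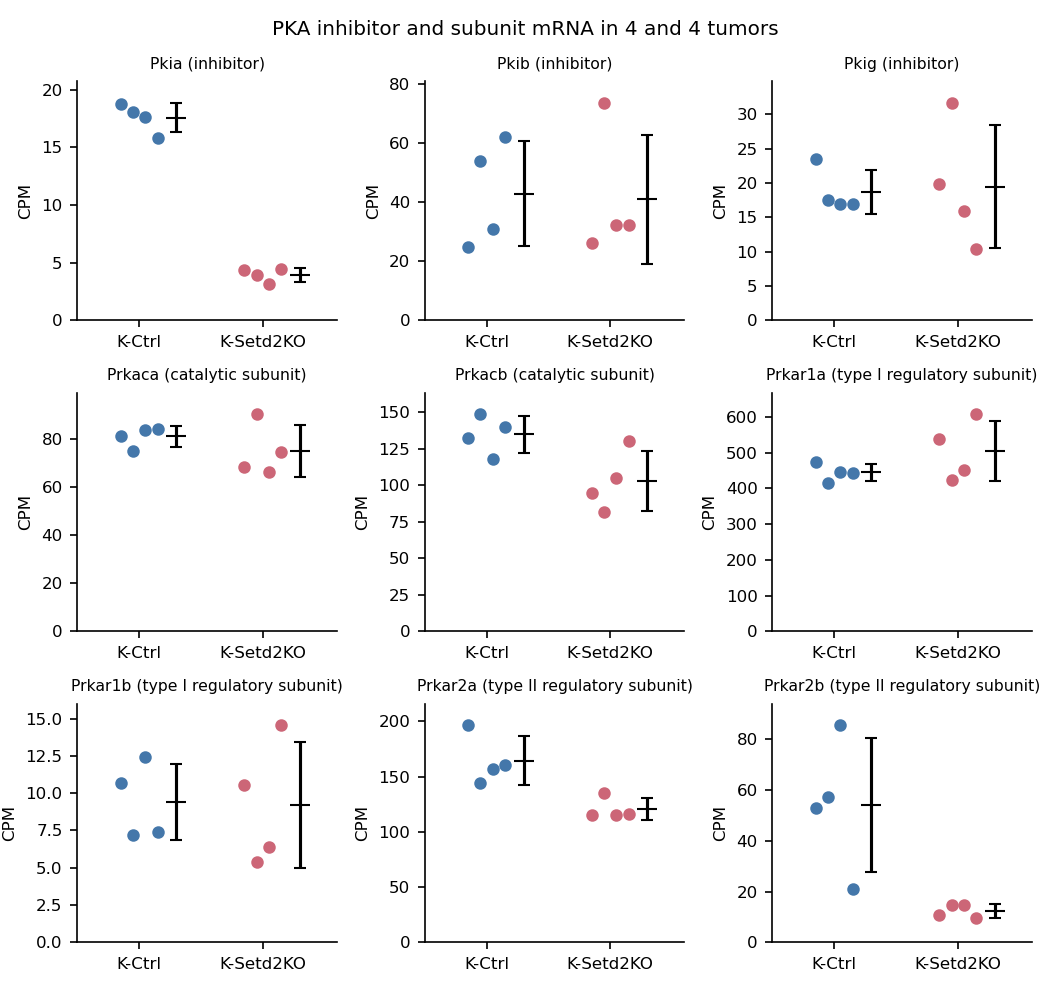
Level of each of the 9 genes in CPM (y axis, from 0), 1 point per tumor in replicate order, with the mean ± SD of the 4 tumors beside each genotype. The points of Pkia, Prkar2a and Prkar2b do not overlap between K-Ctrl and K-Setd2KO, and those of the other 6 genes do. Among all genes tested, 20.3% did not overlap.

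With less *Pkia*, the makeup of inhibitor mRNA shifted. Levels were divided by the summed exon length of each gene, in CPM per kilobase, so that genes could be compared with each other. In *K-Ctrl* the 3 inhibitors were near each other, at 4.72 ± 0.342 for *Pkia*, 4.69 ± 0.799 for *Pkig* and 3.63 ± 1.51 for *Pkib*, and their values overlapped. In *K-Setd2KO* *Pkia* was at 1.07 ± 0.162, below *Pkig* at 4.88 ± 2.25 and *Pkib* at 3.48 ± 1.85 in every tumor (SD, n = 4). *Pkib* has the longest summed exons of the 3, at 11800 bases against 3721 and 3990, and its level per kilobase depends on which of those exons are transcribed here.

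As a share of the summed inhibitor level, *Pkia* made up 38.8%, 35.1%, 40.9% and 31.0% in the control tumors, against 14.0%, 6.90%, 11.1% and 18.3% in the targeted ones. The largest share among the targeted tumors was thus below the smallest among the controls. *Pkig* held 51.1% ± 8.13 in *K-Setd2KO* against 36.1% ± 6.53 in *K-Ctrl*, and *Pkib* 36.3% ± 7.01 against 27.5% ± 9.99, both with overlap. These shares follow in part from the choice of *Pkia* and are given with no test.

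**Figure D2:**
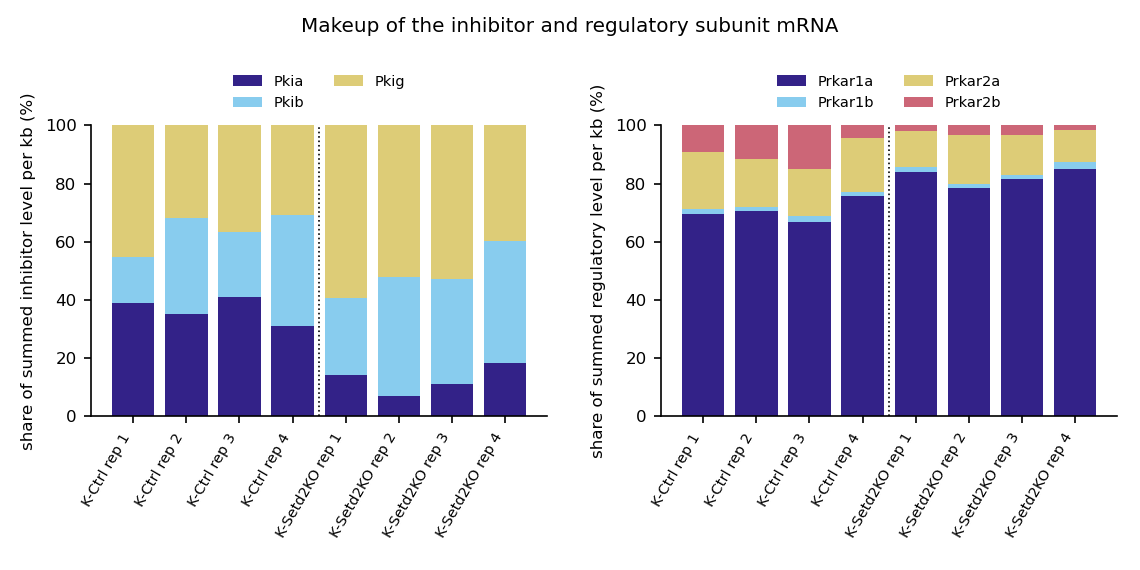
Share (%, y axis) of each gene in the summed level per kilobase of the 3 inhibitors (left) and of the 4 regulatory subunits (right), 1 bar per tumor, K-Ctrl left of the dotted line and K-Setd2KO right of it. The Pkia share falls from 31.0 to 40.9% in the control tumors to 6.90 to 18.3% in the targeted tumors, and the Prkar2b share from 4.27 to 15.2% to 1.56 to 3.26%.

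The catalytic subunits, which are the targets of the inhibitors, did not pass the test. *Prkaca* (chromosome 8, 83972993 to 83996443, plus strand) encodes the ubiquitous alpha catalytic subunit. It was at 81.4, 75.1, 84.1 and 84.4 CPM in *K-Ctrl*, against 68.6, 90.5, 66.5 and 74.6 CPM in *K-Setd2KO*, where replicate 2 exceeded every control (log2 fold change −0.11, SE 0.124, 95% interval −0.40 to 0.17, edgeR adjusted p = 0.576).

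*Prkacb* (chromosome 3, 146729574 to 146812990, minus strand) encodes the beta catalytic subunit and lies on the chromosome of *Pkia*, far from it. It was at 131.9, 148.5, 118.1 and 140.1 CPM in *K-Ctrl*, against 94.6, 81.3, 105.1 and 129.9 CPM in *K-Setd2KO*. Only *K-Setd2KO* replicate 4 reached into the range of the controls. The log2 fold change was −0.39 (SE 0.155, 95% interval −0.74 to −0.04, edgeR adjusted p = 0.126), and without that shallowest library it was −0.53 with an adjusted p of 0.0497.

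The summed catalytic level was 47.1 to 49.9 CPM per kilobase in the control tumors and 38.3 to 45.6 in the targeted tumors, without overlap. Set against it, the summed inhibitor level was 27.2% ± 1.99 of the catalytic level in *K-Ctrl* and 22.3% ± 7.90 in *K-Setd2KO*, with overlap, as *K-Setd2KO* replicate 2 reached 33.3% through its high *Pkib* and *Pkig*. *Pkia* alone was 9.85% ± 0.925 of the catalytic level in *K-Ctrl* and 2.55% ± 0.398 in *K-Setd2KO*. These are ratios of mRNA levels and not of proteins.

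Among the regulatory subunits, both type II genes were lower in *K-Setd2KO* and neither type I gene passed the test. Over the 8 genes other than *Pkia*, 2 were called lower and none higher (edgeR adjusted p under 0.05) (DESeq2 called 2 lower and none higher, limma voom 1 and none), and 6 were not called. At an unadjusted p under 0.05, 3 were lower and 0 higher. Among all genes tested 12.7% were called, 7.74% lower and 4.97% higher. The median log2 fold change of the 8 genes was −0.09, against 0.03 over all genes tested.

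*Prkar2b* (ENSMUSG00000002997.15, chromosome 12, 31958476 to 32061296, minus strand) encodes the type II-beta subunit, which predominates in brain and adipose tissue. It was at 52.7, 57.1, 85.4 and 21.2 CPM in *K-Ctrl*, against 10.8, 14.8, 14.9 and 9.41 CPM in *K-Setd2KO*. The control tumors spread over a wide range, with replicate 3 highest and replicate 4 lowest, and all of them lay above the targeted tumors. The means were 54.1 ± 26.3 and 12.5 ± 2.79 CPM (SD, n = 4 each), a 4.32-fold difference (log2 fold change −2.11, SE 0.379, 95% interval −2.97 to −1.25, edgeR adjusted p = 0.0122). The two-sided exact permutation p of 0.0286 was the smallest that 4 against 4 tumors allow. The call was kept in all 16 alternative fits, with log2 fold changes of −2.38 to −1.80 and adjusted p of 1.17e-06 to 0.0357.

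*Prkar2b* was thus lower by about as much as *Pkia*, but the control tumors differed more in it. Macrophage markers, of which 5 of 10 were called lower, summed to 2139, 3701, 6110 and 2047 CPM in *K-Ctrl*, against 2573, 942.6, 1140 and 386.6 CPM in *K-Setd2KO*. Endothelial markers, 2 of 10 called lower, summed to 2189, 584.2, 1153 and 701.9 CPM in *K-Ctrl*, against 599.1, 493.5, 341.9 and 228.7 CPM in *K-Setd2KO*. The part of these cells in the *Pkia* and *Prkar2b* differences was not tested. Within male tumors, 3 *K-Ctrl* against 1 *K-Setd2KO*, the difference of mean log2 CPM was −1.61 for *Prkar2b* and −2.42 for *Pkia*, and within female tumors, 1 against 3, it was −2.30 and −2.06.

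*Prkar2a* (ENSMUSG00000032601.13, chromosome 9, 108689314 to 108750436, plus strand) encodes the widely expressed type II-alpha subunit. It was at 196.5, 144.4, 156.8 and 160.3 CPM in *K-Ctrl*, against 115.4, 135.2, 115.2 and 116.2 CPM in *K-Setd2KO*. The groups did not overlap, and 3 targeted tumors lay within about 1 CPM of each other. The means were 164.5 ± 22.4 and 120.5 ± 9.80 CPM (log2 fold change −0.45, SE 0.126, 95% interval −0.73 to −0.17, edgeR adjusted p = 0.0467, two-sided exact permutation p 0.0286). Values without overlap were found for 20.3% of all genes tested, 11.2% lower and 9.06% higher in *K-Setd2KO*. This call sat at the threshold: the adjusted p was 0.118 with a replicate block, 0.147 with sex as a term, 0.0937 without a filter and 0.0513 with limma voom. It was also lost when any tumor other than *K-Setd2KO* replicate 2 was left out, at 0.114, 0.0566, 0.0985 and 0.0718 without *K-Ctrl* replicates 1 to 4 and 0.100, 0.107 and 0.0852 without *K-Setd2KO* replicates 1, 3 and 4. Within male tumors the difference was −0.56 and within female tumors −0.24.

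*Prkar1a* (chromosome 11, 109649405 to 109669656, plus strand) encodes the type I-alpha subunit, the main brake on free catalytic subunits in most tissues. It was the most abundant member, at 474, 416, 445 and 444 CPM in *K-Ctrl*, against 538, 424, 453 and 608 CPM in *K-Setd2KO*. The targeted tumors included the highest values but overlapped the controls (log2 fold change 0.18, SE 0.143, 95% interval −0.14 to 0.51, edgeR adjusted p = 0.420). *Prkar1b* (chromosome 5, 139017306 to 139150001, minus strand), the type I-beta gene best known from neurons, was at 10.7, 7.23, 12.4 and 7.41 CPM in *K-Ctrl*, against 10.5, 5.35, 6.37 and 14.6 CPM in *K-Setd2KO* (log2 fold change −0.05, SE 0.345, 95% interval −0.83 to 0.73, edgeR adjusted p = 0.940). The highest and the lowest *Prkar1b* values were both found in targeted tumors.

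**Figure D3:**
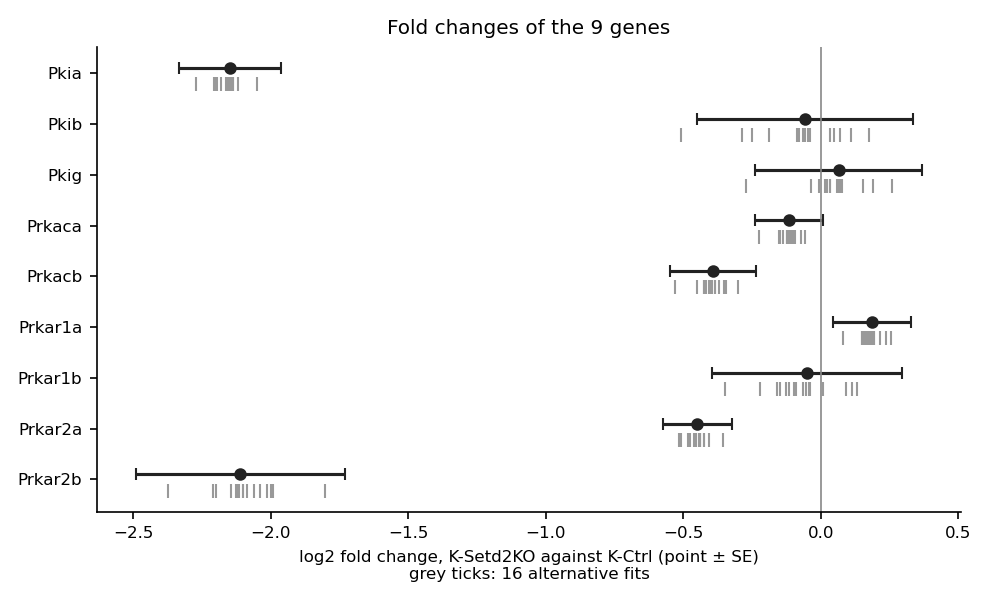
Log2 fold change of each of the 9 genes, K-Setd2KO against K-Ctrl (x axis), as a point with its SE, and the values of 16 alternative fits as grey ticks. Pkia at −2.15 and Prkar2b at −2.11 stand near each other and away from the other 7 genes, which lie between −0.45 and 0.18; the ticks of Pkib, Pkig and Prkar1b fall on both sides of 0.

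On the scale of levels per kilobase, the order in *K-Ctrl* was *Prkar1a* (103.0 ± 5.53), *Prkaca* (32.7 ± 1.75), *Prkar2a* (25.8 ± 3.52), *Prkacb* (15.4 ± 1.48), *Prkar2b* (14.8 ± 7.20), then the inhibitors *Pkia*, *Pkig* and *Pkib*, and last *Prkar1b* (2.47 ± 0.667). The neighbours *Prkaca* and *Prkar2a*, *Prkacb* and *Prkar2b*, the inhibitors among themselves, and *Pkib* and *Prkar1b* overlapped between tumors. *Prkar2b*, which varied widely, also overlapped *Prkar2a* and *Pkig*. In *K-Setd2KO* the order began in the same way, with *Prkar1a* (117.1 ± 19.3), *Prkaca* (30.2 ± 4.37), *Prkar2a* (18.9 ± 1.54) and *Prkacb* (11.7 ± 2.35). *Prkar2b* (3.42 ± 0.764) was then among *Pkig*, *Pkib* and *Prkar1b* (2.42 ± 1.11), which it overlapped, and *Pkia* was the lowest of the 9 genes in each of the 4 tumors.

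The shares of the regulatory subunits restate the differences above and have no test of their own. *Prkar1a* made up 70.7% ± 3.76 of the summed regulatory level in *K-Ctrl* and 82.3% ± 2.87 in *K-Setd2KO*, without overlap. The type II share was 28.7%, 28.1%, 31.1% and 22.8% in the control tumors, against 14.2%, 20.2%, 17.2% and 12.6% in the targeted ones, again without overlap. *Prkar2b* made up 9.14%, 11.5%, 15.2% and 4.27% of the regulatory level in the control tumors, and 2.49% ± 0.846 (SD, n = 4) in the targeted ones, while *Prkar2a* made up 17.6% ± 1.67 and 13.6% ± 2.60, with overlap. The summed regulatory level per catalytic level was 3.05 ± 0.285 and 3.41 ± 0.501, with overlap.

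Genes at or near the members were examined next. *Pkia* overlapped only a pseudogene with 0 counts in all tumors, and *Pkib*, *Prkaca*, *Prkar1a* and *Prkar2b* overlapped no gene of the table. *Prkar1b* overlapped *Gm15672* on its own strand, which had 5 to 23 counts per tumor, and the genes overlapping *Pkig*, *Prkacb* and *Prkar2a* held at most 16 counts in total. The tested protein-coding neighbours of *Pkia* were not called. The nearest, *Zc2hc1a*, begins 58.1 kb after it and had a log2 fold change of 0.36 (SE 0.127, edgeR adjusted p = 0.0975), the next, *Il7*, lies 124.6 kb away at 0.51 (adjusted p = 0.288), and on the other side *Pex2*, 1790 kb away, was at 0.04 and *Zfhx4*, 1951 kb away, at 1.12.

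The genes whose pattern over the 8 tumors was most like that of *Pkia*, by Pearson's r of log2 CPM, were *Nrp2* (0.992), *Ccnd2* (0.990), *Cep83* (0.989), *Dip2b* (0.989) and *Dcp2* (0.989). *Nrp2*, a semaphorin and VEGF co-receptor, was at 101.2 ± 6.21 CPM in *K-Ctrl*, against 48.9 ± 1.47 CPM in *K-Setd2KO*, and *Ccnd2*, a G1 cyclin, at 170.6 ± 34.3 and 36.2 ± 8.54 CPM. The 8 points hold the genotype difference itself, so these values describe tight groups and not a relation within a genotype. Of the other members, *Prkar2b* (0.865) and *Prkar2a* (0.856) came at ranks 827 and 891 of 14928 genes, and *Pkib* (0.035) and *Pkig* (0.042) near the middle.

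To place the members in their pathway, 5 further lists were counted, without a test of any list as a whole. Most marker lists had a negative median log2 fold change too, with few genes called in most of them. The median was −1.39 for pan-leukocyte (8 of 10 genes called lower), −1.63 for macrophage (5 of 10) and −1.42 for endothelial genes (2 of 10). It was −1.72 for lymphocyte (0 of 9 tested), −1.25 for ciliated (1 of 8 tested), −0.89 for fibroblast (2 of 10) and −0.86 for smooth muscle genes (1 of 10). Only the pan-leukocyte sums were lower without overlap. Neutrophil genes were at 0.51, epithelial genes at 0.39 and alveolar type 2 genes at 0.00. The part of these cells in the list counts and in the genes was not tested. A-kinase anchoring proteins, which tether the regulatory dimers, held 23 tested of 29 genes, of which 5 were lower in edgeR, 0 were higher and 18 were not called (2 higher at an unadjusted p under 0.05, 1 with DESeq2 and 0 with limma voom), and the median log2 fold change was −0.07. The called genes were 21.7% of those tested, against 12.7% of all genes (7.74% lower, 4.97% higher). The count was 3 without *K-Ctrl* replicate 1 and with a replicate block, and with sex as a term it was 3 lower and 1 higher. *Map2*, a microtubule protein that binds type II subunits, was at 49.7, 25.4, 28.4 and 25.5 CPM in *K-Ctrl*, against 13.2, 7.96, 7.20 and 11.8 CPM in *K-Setd2KO* (log2 fold change −1.69, SE 0.291, edgeR adjusted p = 0.0106). *Rab32*, a mitochondrial and melanosomal anchor, fell from 31.0 ± 9.86 to 10.6 ± 2.90 CPM (−1.54, adjusted p = 0.0126), and *Akap17b* from 10.8 ± 3.02 to 2.83 ± 1.61 CPM (−1.92, adjusted p = 0.0166). These 3 genes were without overlap and were called in all 16 alternative fits. Of the tested anchoring proteins 5 were lower without overlap and 2 higher, against 11.2% and 9.06% of all genes tested.

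*Akap13*, an anchor that is also a guanine nucleotide exchange factor, fell less, from 379.7 ± 36.7 to 259.8 ± 18.0 CPM (−0.55, edgeR adjusted p = 0.0204), and was lost with a replicate block, with sex as a term and without *K-Ctrl* replicate 1 (up to 0.0704). *Akap12*, the scaffold gravin, named after its values were seen, was called at −2.12 (adjusted p = 0.0462) but overlapped, with controls of 213.2, 45.1, 167.8 and 31.9 CPM against 17.6 to 33.7 CPM, and was called in 6 of 16 alternatives. *Ezr*, the membrane linker ezrin, had the highest level of the list at 184.3 and 201.5 CPM per kilobase and did not pass the test (0.13, adjusted p = 0.766).

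The list of cAMP synthesis holds G proteins, adenylyl cyclases and receptors coupled to them. Of 23 tested of 25 genes, 6 were lower in edgeR, 0 higher and 17 not called (0 higher also at an unadjusted p under 0.05, with DESeq2 and with limma voom), and the median log2 fold change was −0.72. This was 26.1% of the genes tested, against 7.74% called lower among all genes, and the count was 2 with sex as a term, without *K-Ctrl* replicate 3 and without *K-Setd2KO* replicate 3, and 3 without *K-Ctrl* replicate 1, *K-Ctrl* replicate 2 or *K-Setd2KO* replicate 4. The calcium-stimulated cyclase *Adcy8* was at 9.05, 4.12, 6.46 and 3.48 CPM in *K-Ctrl*, against 0.925, 0.841, 0.738 and 1.20 CPM in *K-Setd2KO* (−2.66, SE 0.396, edgeR adjusted p = 0.00738). *Adcy5*, a calcium-inhibited cyclase, was at 17.6, 4.87, 7.85 and 3.93 CPM and at 1.44, 0.918, 1.48 and 1.54 CPM (−2.68, SE 0.510, adjusted p = 0.0135). Neither cyclase overlapped between the groups, and of 15 alternatives *Adcy8* was called in 15 and *Adcy5* in 14, with 0.0504 when sex was a term. In this list 7 tested genes were lower without overlap and 0 higher, against 11.2% and 9.06% of all genes tested.

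*Calcrl*, the receptor for adrenomedullin and best known from endothelium, was at 776.1, 201.8, 428.9 and 162.5 CPM in *K-Ctrl*, against 134.2, 83.6, 94.8 and 68.6 CPM in *K-Setd2KO* (−2.04, edgeR adjusted p = 0.0287). The prostaglandin receptor *Ptger4* fell from 8.43 ± 5.04 to 2.35 ± 1.07 CPM (−1.82, adjusted p = 0.0375). *Calcrl* was called in 10 and *Ptger4* in 8 of 16 alternatives. *Ptger2* (−2.27, adjusted p = 0.0486) and *Glp1r* (−3.39, adjusted p = 0.0455), named after their values were seen, were called in 7 and 8 of 15. *Gnai2*, the inhibitory G protein with the highest mean level per kilobase of the list, was at 327.2 ± 41.9 and 273.8 ± 41.1 CPM. It did not pass the test (−0.26, adjusted p = 0.287). In CPM, *Calcrl* was higher in *K-Ctrl* and *Adcy7* in *K-Setd2KO*. Genes overlapping those of this list were not examined.

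Phosphodiesterases, which break down cAMP, held 13 tested of 16 genes, of which 2 were lower, 1 was higher and 10 were not called (median −0.36). The called genes were 23.1% of those tested, against 12.7% of all genes. Both genes of the cGMP-inhibited family 3 fell. *Pde3b* was at 31.2, 39.8, 45.2 and 23.0 CPM in *K-Ctrl*, against 11.5, 8.11, 11.4 and 12.2 CPM in *K-Setd2KO* (−1.69, SE 0.235, edgeR adjusted p = 0.00643). *Pde3a* was at 77.1, 14.3, 40.2 and 20.1 CPM and at 5.09, 4.51, 4.15 and 3.59 CPM (−3.11, SE 0.511, adjusted p = 0.00929). Neither overlapped, and both were called in all 16 alternatives. In this list 2 tested genes were lower without overlap and 1 higher, against 11.2% and 9.06% of all genes tested. *Pde7b*, a cAMP-specific enzyme, rose from 97.5 ± 19.9 to 168.9 ± 40.6 CPM (0.79, adjusted p = 0.0402), a call kept in 8 of 16 alternatives. Its mean level per kilobase was the highest of the list, though in *K-Ctrl* *Pde7a* was near it (13.41 against 13.49 CPM per kilobase). *Pde1c*, named after its values were seen, was below the filter, at 0.677, 10.4, 5.59 and 5.18 CPM in *K-Ctrl*, against most 0.153 CPM in *K-Setd2KO*.

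Among CREB factors and genes that cAMP is known to induce, all 24 were tested, of which 2 were higher, 3 lower and 19 not called, with a median of 0.06 and a range of −2.36 to 1.73. *K-Setd2KO* replicate 2 stood high in several induced genes, named after their values were seen: *Nr4a1* was at 127.7 CPM against 5.99 to 20.95 CPM in the other targeted tumors, *Nr4a2* at 41.5 against 1.88 to 3.39 CPM, *Sik1* at 362.1 against 43.5 to 108.9 CPM and *Gem* at 51.6 against 5.99 to 9.40 CPM. Without that tumor edgeR called 9 genes of the list, 8 lower and 1 higher. The called genes were 20.8% of the list, against 12.7% of all genes. *Areg*, an EGF receptor ligand, rose from 48.0 ± 13.1 to 158.3 ± 92.1 CPM (1.73, edgeR adjusted p = 0.0226). It had the highest mean level per kilobase of the list, though not the highest CPM in *K-Ctrl*. *Ppargc1a*, a coactivator of mitochondrial genes, rose from 12.5 ± 5.52 to 28.1 ± 8.29 CPM (1.17, adjusted p = 0.0467). *Rgs2*, a brake on G protein signaling, fell from 32.3 ± 8.48 to 10.9 ± 4.30 CPM (−1.55, adjusted p = 0.0169), *Fosb*, an immediate-early factor, from 12.3 ± 7.76 to 2.40 ± 1.63 CPM (−2.36, adjusted p = 0.0274), and *Sik2*, a kinase that restrains CREB coactivators, from 13.7 ± 4.35 to 4.90 ± 2.06 CPM (−1.47, adjusted p = 0.0274). Calls were kept in 10, 8, 14, 11 and 9 of 16 alternatives for *Areg*, *Ppargc1a*, *Rgs2*, *Fosb* and *Sik2*, and without *K-Ctrl* replicate 3 edgeR called 0 genes of this list.

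Of 5 tested of 6 genes for other cAMP effectors and kinases, 3 were lower in edgeR, 0 higher and 2 not called (0 higher also at an unadjusted p under 0.05, with DESeq2 and with limma voom), with a median of −1.24. Among all genes 7.74% were called lower. Of the 5 tested, 3 were lower without overlap, against 11.2% of all genes tested. *Prkx*, a catalytic relative of PKA that is also bound by PKI and type I subunits, was at 75.2, 73.6, 76.3 and 67.8 CPM in *K-Ctrl*, against 53.4, 53.6, 53.8 and 56.7 CPM in *K-Setd2KO*, without overlap (−0.43, SE 0.0966, edgeR adjusted p = 0.0229). *Rapgef3*, the exchange factor EPAC1, fell from 20.2 ± 8.57 to 8.82 ± 1.11 CPM (−1.19, adjusted p = 0.0263), and *Popdc3*, a cAMP-binding membrane protein, from 5.59 ± 3.49 to 0.973 ± 0.954 CPM (−2.67, adjusted p = 0.0392). *Prkx* and *Rapgef3* were called in 8 and 12 of 16 alternatives and *Popdc3* in 7 of 15. With sex as a term, or without *K-Ctrl* replicate 3 or *K-Setd2KO* replicate 3, none was called, and with the replicate block 1 was.

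**Figure D4:**
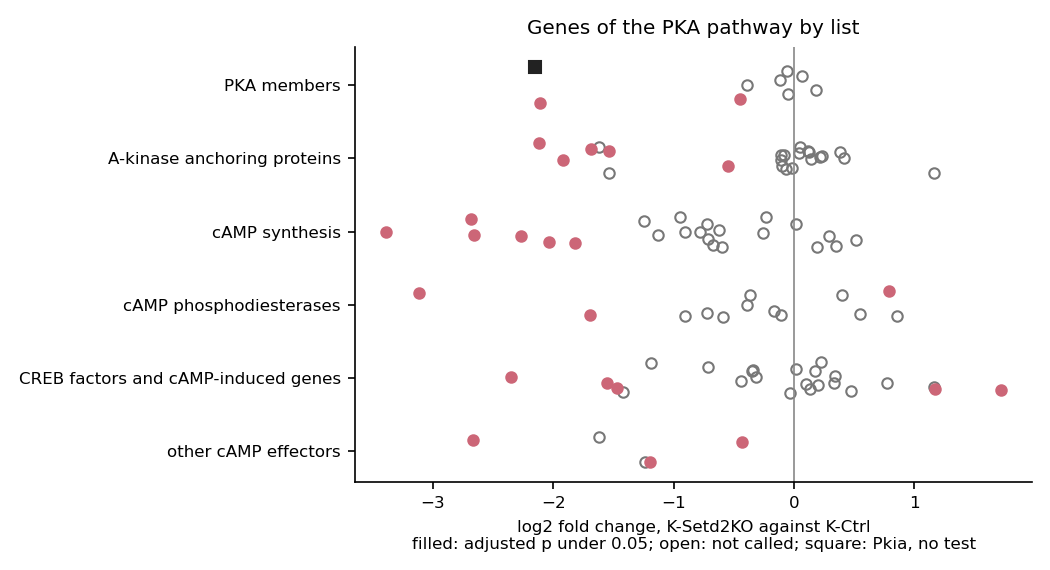
Log2 fold change of every tested gene (x axis, K-Setd2KO against K-Ctrl) in the PKA members and 5 further lists of the pathway, with genes past an edgeR adjusted p of 0.05 filled, others open and Pkia as a square with no test. The called genes lie to the left of 0 except Pde7b, Areg and Ppargc1a; vertical position within a list carries no value.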

How the data were processed

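RNA of 8 mouse lung tumors was sequenced from libraries made with a stranded mRNA kit. An allele that all the mice share is not reported here. The authors deposited a table of raw counts per gene, not normalized, with the summed exon length of each gene. The submitters' processing notes name STAR 2.5.2b, featureCounts 1.5.0-p1 and GRCm38.p4. The annotation release and the strand setting of the counting are not given in the sources used here. Symbols came from GENCODE M21, which matched 48349 identifiers (99.26%), and sequences from its transcripts.

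Genotypes were compared in R 4.3.3 with edgeR 4.0.16 (filterByExpr, TMM factors, robust quasi-likelihood fit, genotype alone) over 14929 genes with Benjamini-Hochberg adjustment and a call at an adjusted p of 0.05, where 1897 genes were called. The study used DESeq2, and both DESeq2 1.42.0 and limma voom (limma 3.58.1) were run as alternatives. Standard errors are the absolute log2 fold change over the square root of F. CPM used TMM-scaled library sizes, and log2 CPM a prior count of 2. The fitting was tested on simulated data. Exact permutation tests enumerated 70 assignments of 4 and 4 tumors.

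The members and lists were chosen with earlier results of these data known. Of each list, the text names up to 4 higher and 4 lower called genes by p and the gene with the highest level per length, of *Pkia* the 5 most correlated genes, overlapping genes and 2 neighbours on each side, and any other gene as chosen after its values were seen. Marker lists gave, beside the counts in the results, 1 lower of 7 tested neutrophil genes, 1 higher and 1 lower of 10 alveolar type 2 genes, and 2 higher of 10 epithelial genes. The neutrophil markers *Ly6g* and *Camp* had at most 3 counts in every tumor. No pair of libraries within a group was alike within sampling noise (lowest chi-square per degree of freedom 30.5).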

Additional observations from a re-analysis of the deposited data

Results flagged for a closer look

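In 11 of 106 groups of 4 values, 1 tumor stood apart from the other 3 by a gap whose share of the group's range was above Dixon's 95% critical value. About 5.3 such groups would arise by chance.

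Among the members, *Pkib* reached 73.4 CPM in *K-Setd2KO* replicate 2 against 26.2 to 32.4 CPM in the other 3, *Prkar2a* 135.2 CPM in the same tumor against 115.2 to 116.2 CPM, and *Pkig* 23.4 CPM in *K-Ctrl* replicate 1 against 16.9 to 17.6 CPM. Of the pathway genes examined in this way, *K-Setd2KO* replicate 2 also stood apart in *Ezr* (1067 against 497.7 to 547.4 CPM), *Sik2* (7.96 against 3.42 to 4.16 CPM) and *Adcy5* (0.918 against 1.44 to 1.54 CPM). *Nr4a1*, *Nr4a2* and *Gem*, named after their values were seen and high in the same tumor, were not among the groups examined. *K-Setd2KO* replicate 4, the shallowest library, stood apart in *Prkx* (56.7 against 53.4 to 53.8 CPM) and *Popdc3* (2.40 against 0.369 to 0.612 CPM). Among the control tumors, *Map2* was at 49.7 CPM in replicate 1 against 25.4 to 28.4 CPM, *Akap17b* at 15.3 CPM in replicate 4 against 8.82 to 9.88 CPM, and *Fosb* at 23.8 CPM in replicate 3 against 7.08 to 9.10 CPM.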

How the results depend on the processing

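The *Prkar2b* call was kept in all 16 alternatives. *Pkia* was chosen for its fall in these same counts, so its direction in the refits is a description and no support. Of the 8 other members, 1 was called without a filter, with limma voom, with the replicate block and with sex as a term. The replicate numbers did not pair the tumors: same-numbered tumors correlated at −0.07 to 0.19, and 1 of 4 control tumors correlated best with its own number. With the replicate block 3 anchoring proteins, 5 phosphodiesterases, 3 CREB or cAMP-induced genes and 1 other effector were called, and *Pkig* turned to −0.036. With sex as a term, 2 genes of cAMP synthesis, 2 CREB or cAMP-induced genes, 0 other effectors and 1237 genes in all were called, and *Pkig* turned to −0.007, while 3 effectors were lower in that edgeR fit at an unadjusted p under 0.05. With at least 10 counts in every tumor 2 genes of cAMP synthesis were called, with fewer genes tested. Without a filter and with DESeq2, 5 phosphodiesterases were called, and DESeq2 called 3193 genes in all. Leaving out each tumor in turn gave 1 to 2 members, 3 to 5 anchoring proteins, 2 to 6 genes of cAMP synthesis, 2 to 4 phosphodiesterases, 0 to 9 CREB or cAMP-induced genes, 0 to 3 other effectors and 763 to 2058 genes in all, with 763 and 0 CREB or cAMP-induced genes without *K-Ctrl* replicate 3, and 9 of the latter without *K-Setd2KO* replicate 2. In these fits *Pkib* ranged from −0.51 to 0.17, *Pkig* from −0.27 to 0.26, *Prkar1b* from −0.35 to 0.13 and *Ezr* from −0.21 to 0.25. As a share of its class rather than a level, the log2 ratio of *Pkia* was −1.53 and that of *Prkaca* 0.08. The cause of these shifts was not tested. Of the 22 pathway genes called, 8 to 21 were still called with 1 tumor left out and 9 with sex as a term; alternatives for them were chosen after seeing the data. The level of 3 counts is a set floor and no measure of counting error, and reads copied by PCR are not independent molecules.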
